A study of Arabidopsis thaliana with 6 samples.

Results

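The RPP4/RPP5/SNC1 cluster is a run of immune receptor genes on chromosome 4 of Arabidopsis thaliana, and its transcripts were measured here in seedlings with and without a rice topoisomerase subunit. The members were the probe sets annotated to a single locus among 10 listed loci from AT4G16860 to AT4G16990. The platform annotation gave 4 of the 10 loci a probe set of their own, out of 13286 genes with such a probe set on the array. These were AT4G16870, AT4G16880, AT4G16900 and AT4G16920. A further 2 loci, AT4G16940 and AT4G16960, shared 1 probe set, which the rule left out. The remaining 4, which include RPP4 (AT4G16860), SNC1 (AT4G16890), RPP5 (AT4G16950) and RLM3 (AT4G16990), were not listed in the annotation and were not analysed here. The values below therefore do not cover the receptors that the cluster is named for.

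The cluster codes for receptors of the TIR type, intracellular proteins with a Toll/interleukin-1 receptor domain, a nucleotide-binding domain and leucine-rich repeats that start defence when they sense a pathogen. RPP4 and RPP5 are known for recognition of downy mildew, and SNC1 for a mutant form that keeps salicylic acid defence switched on and dwarfs the plant. Receptors of this type signal through EDS1 and its partners PAD4 and SAG101, and salicylic acid defence is one output of EDS1 signalling. In the Columbia accession the receptor genes stand beside retrotransposon sequences, of which AT4G16870, a Copia-type element next to RPP4, is one, and small RNAs and DNA methylation are known to act on the cluster.

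Total RNA came from whole light-grown seedlings, 10 days old, of the Columbia ecotype, raised under continuous light on sucrose medium. There were 3 arrays of wild type seedlings and 3 of transgenic seedlings that overexpressed the rice cDNA OsTOP6A1, which encodes subunit A1 of topoisomerase 6, an enzyme that cuts both DNA strands and relaxes the helix. The labels call the arrays of a genotype biological replicates, give neither the promoter of the transgene nor the number of transgenic lines, and the level of the transgene was not analysed here. If the 3 arrays came from 1 line, an effect of that line and one of the transgene cannot be told apart.

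The arrays resembled each other in scale, with medians of 37.5 to 39.3 intensity units. Correlations of log2 values across probe sets were 0.991 to 0.995 within a genotype and 0.975 to 0.978 between genotypes. The leaf genes RCA, LHCB4.1 and PSAE-1 had mean intensities of 3154 to 4191 over both genotypes, and the root gene PYK10 of 3219 and 3366. The other listed root genes with a probe set were lower. In wild type and transgenic seedlings NAI2 had means of 726 and 754, EXPA7 of 22.5 and 23.7, and EXPA18 of 36.7 and 39.1. The pollen gene AT5G45880, the 1 listed floral or seed gene of 6 with a probe set, had a mean of 1.83 in both genotypes. None of the 8 named marker probe sets (0) passed the limma test described below, and with an unadjusted p under 0.05 the count was also 0. The number of arrays limits the precision of every value.

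The study's question was how gene expression differs between transgenic and wild type seedlings, and it is asked here of the cluster. Values are probe set intensities in linear units, and differences are transgenic minus wild type on the scale log2(intensity + 16), with the standard error (SE) of a limma fit over all 22746 tested probe sets. This scale compresses differences among dim probe sets, taken here as those at 16 or less. The loci were chosen with this comparison in view, so their values are given as a description without a test. In RNA from whole seedlings, more cells that make a transcript and more transcript per cell cannot be told apart.

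AT4G16870, the Copia-type element, had the largest difference of the 4. Its intensity was 9.0, 7.6 and 9.3 in the 3 wild type arrays and 101, 116.6 and 99.2 in the 3 transgenic arrays. Every transgenic array lay above every wild type array, and the wild type arrays were all dim. The means were 8.63 ± 0.91 and 105.6 ± 9.57 (SD, n = 3 each), a log2 difference of 2.30 (SE 0.08). The size depended on the pseudocount, with 3.47 at a pseudocount of 1 and 1.22 at 64.

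AT4G16880, annotated as a protein-coding gene and known as a short leucine-rich repeat gene between RPP4 and SNC1, was above 16 on all 6 arrays. Its intensity was 64.8, 52.3 and 71.3 in wild type and 74.7, 67.0 and 62.0 in transgenic seedlings. The genotypes overlapped. The means were 62.8 ± 9.66 and 67.9 ± 6.40 (SD, n = 3 each), with a log2 difference of 0.10 (SE 0.11) that became -0.004 without wild type replicate 2.

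AT4G16900, a gene for a TIR-type receptor, was dim on all 6 arrays. Its intensity was 0.3, 0.6 and 0.2 in wild type and 4.4, 9.2 and 8.4 in transgenic seedlings. The genotypes did not overlap, although every transgenic value also lay under 16. The means were 0.37 ± 0.21 and 7.33 ± 2.57 (SD, n = 3 each), a log2 difference of 0.51 (SE 0.09). That difference was 2.57 with a pseudocount of 1 and 0.15 with 64. No fold is given, because detection calls were not used here and all 6 values lie near the bottom of the scale.

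AT4G16920, the next TIR-type receptor gene along the cluster, was also dim on all 6 arrays. Its intensity was 5.1, 9.7 and 6.4 in wild type and 7.5, 9.8 and 9.0 in transgenic seedlings. The genotypes overlapped, because wild type replicate 2 lay above 2 of the transgenic arrays. The means were 7.07 ± 2.37 and 8.77 ± 1.17 (SD, n = 3 each), with a log2 difference of 0.11 (SE 0.09).

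The probe set shared by AT4G16940 and AT4G16960, both of them TIR-type receptor genes, went the other way. It is given for completeness, was picked out after its values had been seen, and cannot be assigned to either gene. Its intensity was 21.5, 17.2 and 25.9 in wild type and 10.4, 13.6 and 14.2 in transgenic seedlings. All transgenic arrays lay below all wild type arrays, with a log2 difference of -0.38 (SE 0.10). The transgenic arrays were all dim and the wild type arrays lay not far above 16. Among all tested probe sets 19.9% had the transgenic arrays below, and nothing is read from this one.

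**Figure D1:**
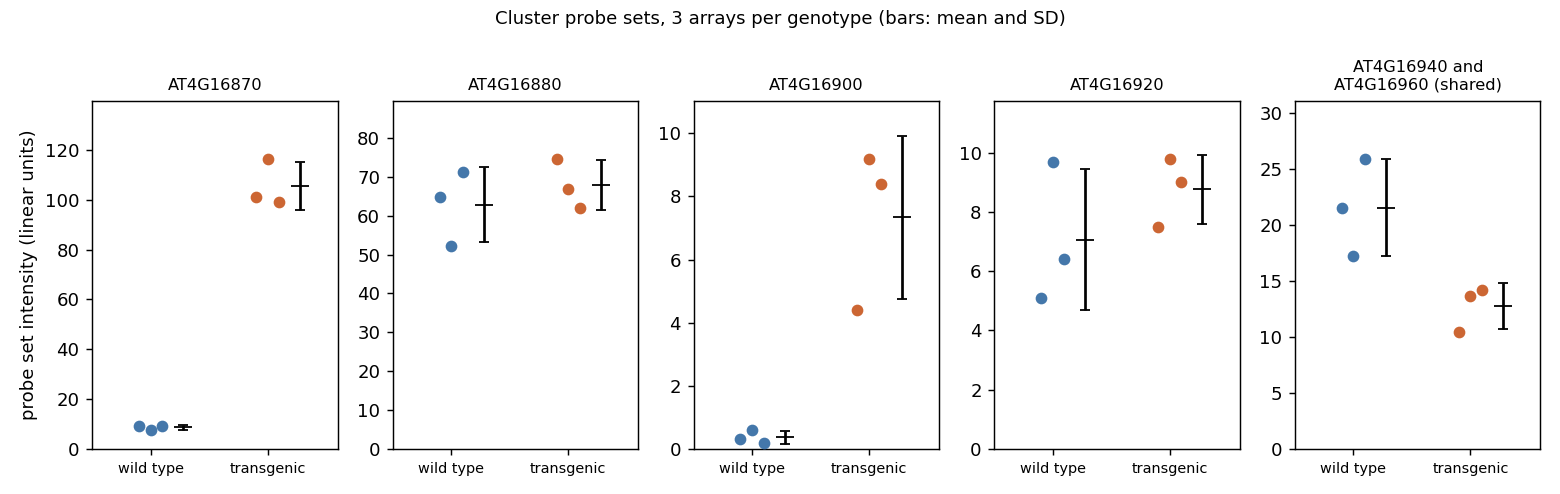
Probe set intensity (linear units, each panel with its own axis from 0) of the 4 cluster loci with a probe set of their own and of the probe set shared by 2 loci. Points are single arrays, and bars give the mean and SD of 3 arrays. AT4G16870 goes from 7.6 to 9.3 in wild type to 99.2 to 116.6 in transgenic seedlings, AT4G16880 and AT4G16920 overlap, and AT4G16900 differs at intensities under 10.

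Of the 4 loci, 2 were higher in every transgenic array than in any wild type array, 0 were lower in every one, and 2 overlapped. Among all tested probe sets 34.9% did not overlap in either direction and 15% had the transgenic arrays above. Nothing is read from these counts, because the loci were chosen on the same comparison. The median log2 difference of the 4 was 0.31, beside -0.02 for all tested probe sets. A median of 4 values hides their spread, since the differences ran from 0.10 to 2.30 and those of AT4G16880 and AT4G16920 were about as large as their SE.

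Among the 4 loci with a probe set of their own, the differences did not fall or rise steadily in gene order. A trend along the whole cluster cannot be judged, because AT4G16900 and AT4G16920 were dim and the other listed loci had no probe set of their own. In the gene order of the reference annotation AT4G16870 comes first, ahead of RPP4, and had 2.30. AT4G16880 follows at 0.10, then AT4G16900 at 0.51 and AT4G16920 at 0.11. Loci inside the range that are not on the list include AT4G16910, annotated as a pseudogene like AT4G16870, with a dim probe set and means of 1.73 ± 1.59 and 2.20 ± 1.71 (SD, n = 3 each). AT4G16930 was dim as well, with a log2 difference of 0.12 (limma adjusted p = 0.348). AT4G16970 had means of 29.8 ± 3.74 and 29.1 ± 7.43 (SD, n = 3 each). AT4G16980, an arabinogalactan-type protein gene, rose on one probe set from 735 ± 86.2 to 1235 ± 107 (SD, n = 3 each), with a log2 difference of 0.74 (SE 0.11, limma adjusted p = 0.00398). Its second probe set read between 11.5 and 17.8 on the 6 arrays and had a difference of 0.07 (limma adjusted p = 0.666). That probe set did not show the rise, but it was dim or nearly so, where the scale compresses differences. The rise of this gene thus rests on its brighter probe set alone.

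On either side of the cluster the 15 nearest loci with a probe set of their own were compared by the same fit, with the 4 unlisted loci inside it. Of these 37 probe sets, 5 rose, 2 fell and 30 did not pass, which is 18.9% called. Of all tested probe sets 16.5% were called, 8.18% higher and 8.31% lower, so the share next to the cluster was close to that of the array. On the side next to AT4G16870, 3 of 15 rose and 1 fell. AT4G16850, the nearest of them, rose from 19.9 ± 1.15 to 42.0 ± 4.52 (SD, n = 3 each), a log2 difference of 0.69 (SE 0.08, limma adjusted p = 0.00127). AT4G16840, the next, did not pass (log2 difference -0.40, limma adjusted p = 0.069).

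AT4G16830, a gene for an RNA-binding protein with arginine and glycine repeats, rose from 130.7 ± 11.1 to 290.4 ± 24.3 (SD, n = 3 each), a difference of 1.06 (limma adjusted p = 3.27e-04). AT4G16800 rose by 0.50 and AT4G16770 fell by 0.66 on the log2 scale, and the call of AT4G16770 ended without transgenic replicate 3 (limma adjusted p = 0.0535). On the side next to RLM3, AT4G17240 rose from 2.93 ± 3.35 to 28.6 ± 3.01 (SD, n = 3 each), a difference of 1.25 (SE 0.13, limma adjusted p = 7.30e-04). AT4G17080 fell by 0.29, a call that ended without each of 3 arrays taken singly (limma adjusted p of up to 0.0571). Calls in both directions and uncalled loci thus lay side by side. AT4G16870 had a larger difference than any of the 37 neighbouring probe sets, which reached 1.25. No result is drawn from that gap, because the cluster loci were chosen on this comparison and the neighbours by position.

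**Figure D2:**
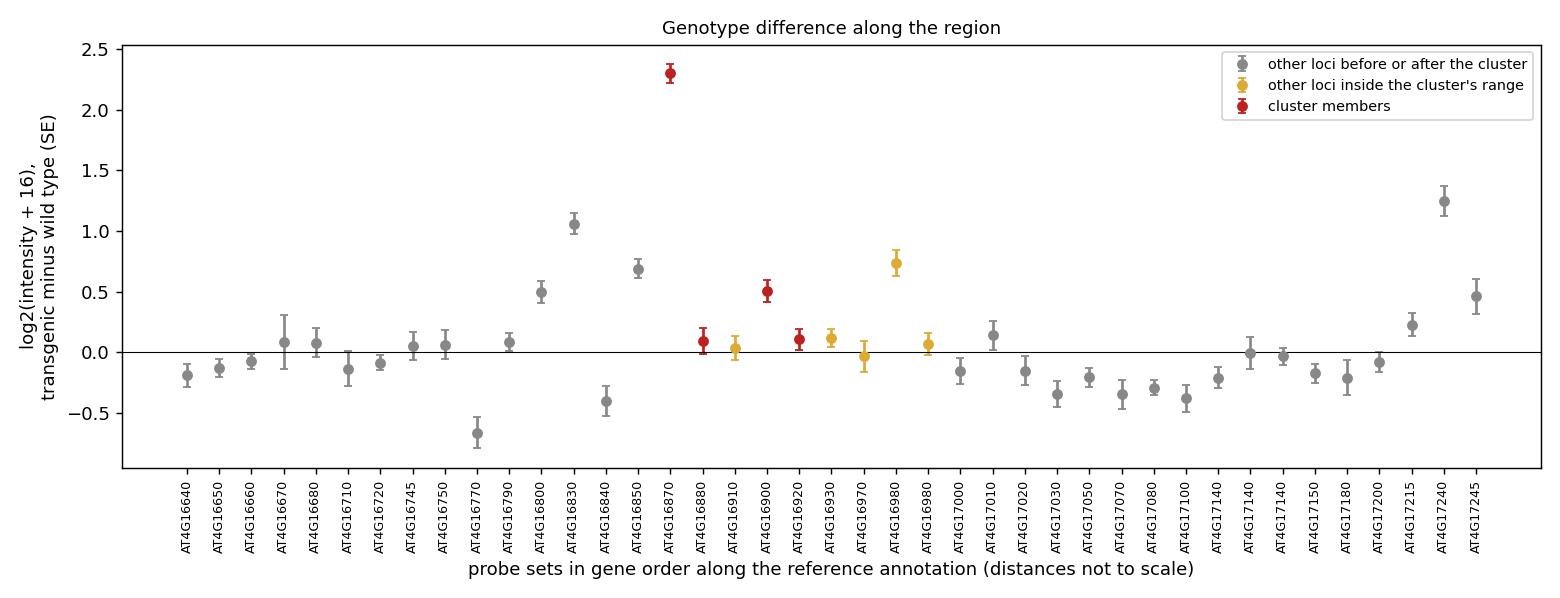
Log2 difference (transgenic minus wild type, log2(intensity + 16), bars are SE) of each single-locus probe set in gene order, for the 4 cluster members, the other loci inside the range and 15 loci on each side. AT4G16870 stands at 2.30, the other members lie between 0.10 and 0.51, and the neighbouring probe sets lie between -0.66 and 1.25.

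AT4G16870 was also set beside other loci that the reference table types as pseudogenes, a class that here includes transposable elements. Among 923 such probe sets 13 rose and 8 fell, or 2.28%, against 16.5% over the whole array. No test of that gap was made. Only 8 of the 923 had a mean intensity of at least 32, and the scale used compresses differences among dim probe sets. AT4G16870 had the largest log2 difference of the 923. Its rank is only a description, because the cluster loci were chosen with this comparison in view. The next was AT1G20390, which went from 5.6 ± 0.75 to 53.0 ± 2.2 (SD, n = 3 each), a difference of 1.68. With a pseudocount of 1 AT4G16870 ranked 3 in place of 1, behind AT2G13970 among others. It kept rank 1 in the other 12 alternative settings, although with the filter on dim probe sets only 8 pseudogene probe sets were left.

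A level that was dim in every wild type array and at 64 or more in every transgenic array was rare. It was met by 28 of 22746 probe sets (0.123%), of which 14 had a single locus and 1, AT4G16870, was typed as a pseudogene. The opposite pattern, from 64 or more to 16 or less, was met by 3 probe sets (0.0132%). These limits were set after the values of AT4G16870 had been seen.

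The probe sets most like AT4G16870 were ranked by the Euclidean distance of their centred log2 values over the 6 arrays, among 13427 single-locus probe sets outside the cluster. The nearest 5 were AT2G21860, AT3G44430, AT4G20480, AT5G28500 and AT1G65370, at distances of 0.19 to 0.24. AT2G21860 went from 44.4 ± 4.53 to 276 ± 15.2 and AT5G28500 from 151 ± 10.9 to 761 ± 28.1 (SD, n = 3 each). AT3G44430, which went from 0.70 ± 0.26 to 66.1 ± 1.41 (SD, n = 3 each), lies in the RPP1 cluster of chromosome 3. Likeness over 6 arrays in 2 groups rests mainly on the size of the genotype difference.

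The RPP1 cluster, another group of TIR-type receptor genes known for downy mildew recognition, also held both dim and clearly higher probe sets. In its range from AT3G44400 to AT3G44670, which includes genes of other kinds, the transgenic arrays lay above the wild type arrays on 7 of 17 probe sets and below on 0, beside 15% and 19.9% of all tested probe sets. The 7 belonged to AT3G44400, AT3G44430, AT3G44450, AT3G44510, AT3G44610, AT3G44620 and AT3G44630. Only AT3G44400 and AT3G44630 among them are named here as receptor genes, so the count is not one of receptors. No single-locus probe set in the range was annotated as RPP1 itself. Its receptor gene AT3G44630 had intensities of 3.5, 6.4 and 4.0 in wild type and 79.4, 79.7 and 82.9 in transgenic seedlings. Its receptor gene AT3G44400 had 0.7, 1.5 and 0.1 against 8.1, 11.9 and 6.3. Both of the latter sets of values were dim, and the genotypes did not overlap in either gene. Differences between the clusters were not tested.

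Genes that act around these receptors were looked up in the same fit. Of 125 genes listed for receptor control, EDS1 signalling, salicylic acid and silencing, 14 had a single-locus probe set, and these gave 15 probe sets. Of the 15, 0 rose, 1 fell and 14 did not pass, a count too small to set apart from the 16.5% called on the whole array, with a median log2 difference of -0.04 beside -0.02 for all tested probe sets. The fall was UGT76B1 (AT3G11340), an enzyme that attaches glucose to salicylic acid and related defence signals. Its intensity was 69.5, 67.8 and 67.3 in wild type and 44.4, 53.0 and 48.6 in transgenic seedlings, with no overlap, and the log2 difference was -0.38 (SE 0.07, limma adjusted p = 0.011).

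Among regulators of SNC1, 6 of 40 genes had a probe set, and 0 of their 7 probe sets passed in limma, beside 16.5% of all tested probe sets, while 1 had an unadjusted p under 0.05. That one was MAC3B (AT2G33340), a ubiquitin ligase of the spliceosome-associated complex needed for SNC1 signalling. The wild type mean was 386 ± 28.4 and the transgenic mean 320.2 ± 11.0 (SD, n = 3 each), without overlap and with a limma adjusted p of 0.0573. It passed in 4 alternative settings, with an adjusted p of 0.0291 to 0.049. Its close relative MAC3A had means of 195 ± 16.2 and 191 ± 8.88 (SD, n = 3 each). The co-chaperone gene SGT1A, which acts in receptor folding and turnover, had means of 88.1 ± 19.2 and 84.4 ± 5.80 (SD, n = 3 each), and SIZ1, a SUMO ligase that restrains SNC1, had 153 ± 7.38 and 148 ± 9.05 (SD, n = 3 each) on its brighter probe set.

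In EDS1 signalling 2 of 10 genes had a probe set, and 0 passed in limma, with 0 at an unadjusted p under 0.05. With 2 probe sets and 16.5% called on the array, that count says little. SAG101 had means of 25.0 ± 6.06 and 17.8 ± 4.33 (SD, n = 3 each). AT3G48080, a near copy of EDS1 that its probe set may not tell from EDS1, had 14.2 ± 4.55 and 10.2 ± 5.81 (SD, n = 3 each). Among the salicylic acid genes, 6 of 48 had a probe set. WRKY53, a transcription factor of defence and senescence, had means of 22.0 ± 4.28 and 24.5 ± 7.68 (SD, n = 3 each). AT5G52810, known as SARD4 and needed to make pipecolic acid, had 91.0 ± 35.7 and 64.1 ± 5.37 (SD, n = 3 each), and the wide spread in wild type came from replicate 1 at 132 beside 67.0 and 74.1. The glutaredoxin gene GRX480 (AT1G28480), induced by salicylic acid, had 16.9 ± 6.75 and 11.8 ± 1.99 (SD, n = 3 each). The genes PR1, PR2, ICS1, NPR1 and PAD4, and all 27 genes of small RNA and DNA methylation pathways on the list, had no single-locus probe set in the annotation used, which gave no locus for 8807 of the 22746 tested probe sets, and were not analysed here.

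**Figure D3:**
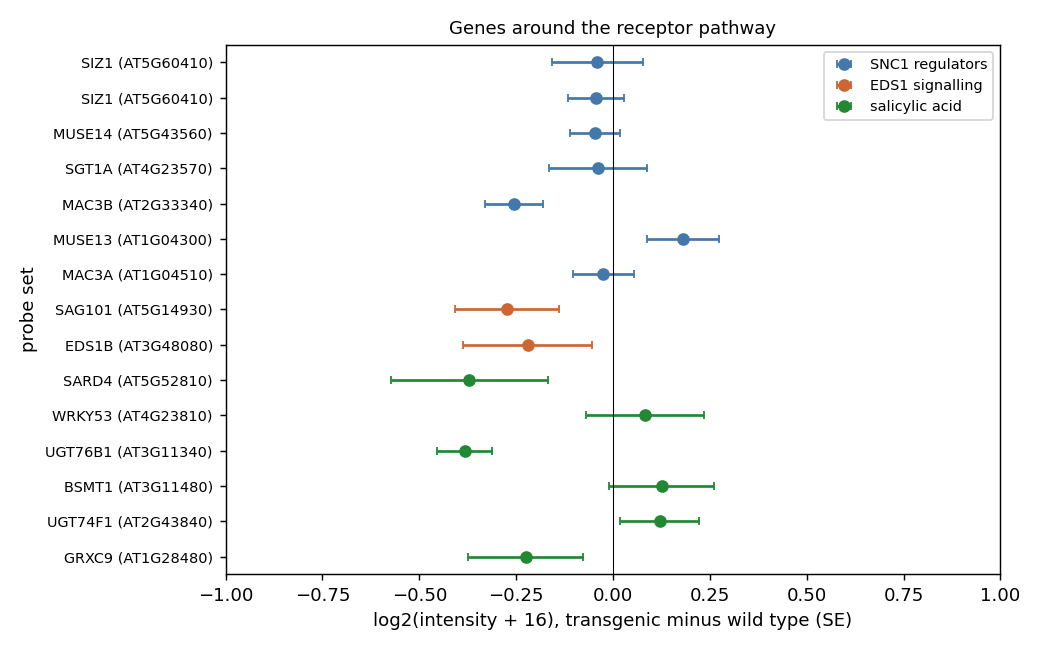
Log2 difference (transgenic minus wild type, log2(intensity + 16), bars are SE) of the 15 probe sets for genes around the receptor pathway, coloured by list. UGT76B1 at -0.38 is the 1 probe set past the threshold, and the rest lie between -0.37 and 0.18.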

How the data were processed

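The authors deposited 1 table of probe set intensities on a linear scale for 6 arrays. Per the labels' protocols, RNA was extracted with TRIzol and biotinylated cRNA was prepared by the Affymetrix procedure. Software and scaling were not given in the sources used here. The mean intensity after trimming 2% at each end was 100.0 on every array, so no further normalization was applied. Of 22810 probe sets, 64 controls were left out and 22746 were tested, with no filter on low values. The platform annotation and the RefSeq gene table (TAIR10.1) gave 13436 probe sets a single locus, while 503 had several genes and 8807 had none.

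Genotypes were compared on log2(intensity + 16) with lmFit and eBayes in limma 3.58.1 (R 4.3.3), over all 6 arrays without a block. Benjamini-Hochberg adjustment ran over all tested probe sets, with calls at 0.05. The fit was also run on simulated arrays with independent normal noise and far fewer changed probe sets than were called here. That setting differs from these data, so nothing about the calls is read from it. P-values set the genotype difference against the spread between these arrays, as estimated by eBayes. They do not cover spread between transgenic lines, whose number was not given.

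The members, lists and tests were chosen with earlier results of these data known. Every member was named. Listed and neighbouring genes were named where they passed (at most 12 per list), with up to 3 of the brightest per list, and any other name was picked with its values in view. The 5 probe sets most like the member with the largest difference were named too. Alternatives were quantile normalization, median centring, pseudocounts of 1 and 64, a minimum mean intensity of 32, a variance trend, a replicate block, and omission of each array.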

Additional observations from a re-analysis of the deposited data

How the results depend on the processing

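The log2 difference of AT4G16870 lay between 2.24 and 2.34 without single arrays and was 3.47 and 1.22 with pseudocounts of 1 and 64. That of AT4G16900 lay between 0.45 and 0.60 without single arrays and was 2.57 and 0.15 with these pseudocounts, and that of AT4G16920 was 0.31 with a pseudocount of 1, 0.04 without wild type replicate 1 and 0.19 without wild type replicate 2, against 0.11. AT4G16880 stayed between -0.004 and 0.17 in all 13 alternatives. AT4G16900 and AT4G16920 had no value under the minimum mean intensity of 32. The pathway lists had 2 calls, in place of 1, under quantile normalization, a pseudocount of 64, the minimum intensity and the variance trend, the second being MAC3B. The loci next to the cluster had 5 to 9 calls without single arrays, against 7, and 10 (4 rises and 6 falls) under the minimum intensity. Over all probe sets 3751 calls became 2143 with a pseudocount of 1 and 2181 to 3433 without single arrays. The cause of these drops was not tested, and a fit without an array also has fewer arrays. Same-numbered deviations correlated at 0.19, 0.06 and 0.11, and differently numbered ones at -0.16 to 0.08. Transgenic replicates 1 and 3 correlated best with the wild type array of their number, and transgenic replicate 2 with wild type replicate 3 (0.08). Whether the replicate numbers pair the arrays is thus not settled. With a replicate block 3592 probe sets were called, among them 1 pathway probe set and 9 next to the cluster, and the differences of the 4 cluster loci were the same by construction. Dimness limits AT4G16900 and AT4G16920, whose values all lie under 16.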
